A study of Mus musculus with 8 samples.

Results

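The 10 genes described here encode enzymes that build serine, glycine, asparagine, proline and aspartate and that charge folate with carbon units. They were chosen by name (Asns, Phgdh, Psat1, Psph, Shmt2, Mthfd2, Mthfd1l, Aldh18a1, Pycr1 and Got1), 10 of the 24411 genes in the count table, by a rule that sets no threshold on any measured value. All 10 passed the filter on low counts, with 13633 genes of the whole table. Liver RNA was sequenced from neonatal mice of a pair of genotypes, each given vehicle or triclosan (TCS), an antimicrobial compound, in 4 groups of 2 libraries (n = 2 per group, 8 libraries in all). The hUGT1/Atf4F/F mice carry a floxed Atf4 gene that is intact. In the hUGT1/Atf4ΔHep mice the same gene is deleted in hepatocytes, the main cells of the liver, with Cre driven by the albumin promoter. Which cells held the Atf4 RNA that remained was not tested. All groups share the humanized UGT1 background, in which the human UGT1 locus stands in for a deleted mouse Ugt1 locus. TCS was given at 50 mg/kg by gavage on 4 consecutive days. The animal methods of the study give an age of 10 days at the first dose, whereas its RNA-sequencing methods give 14 days. Each library held the pooled RNA of 2 mice, so that a group stood for 4 mice.

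ATF4 is a transcription factor whose translation rises when cells lack amino acids or accumulate unfolded proteins in the endoplasmic reticulum. Genes of amino acid and folate metabolism are among its textbook targets, and many of these were defined in cultured cells. ATF4 binds DNA as a heterodimer with C/EBP proteins at a composite element that joins part of a C/EBP site to part of an ATF site. In the pathway, serine is made from a glycolytic intermediate by PHGDH, PSAT1 and PSPH in turn. Mitochondrial SHMT2 splits serine into glycine and a folate-bound carbon unit, which MTHFD2 oxidizes and MTHFD1L releases as formate. ASNS makes asparagine from aspartate and glutamine. ALDH18A1 and PYCR1 make proline from glutamate, and GOT1 converts aspartate and oxaloacetate into each other in the cytosol. The liver also holds enzymes that make or break down these amino acids by other routes, several of them in great abundance. The comparisons therefore ask how the transcripts of these enzymes differed without hepatocyte Atf4, how they differed with TCS, and whether the effect of TCS differed between genotypes.

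The promoters of the 10 genes were searched for the composite element, written as TGATGNAA on either strand, with N standing for any base. The windows came from RefSeq on GRCm38.p6 and held 250 bases before and 50 bases after the annotated start. All 10 genes had at least 1, with 11 windows in all. The element was found in 3 of the 10 genes, Asns, Got1 and Pycr1. It was present in 2.78% of the 10380 tested genes with a window and in 4.51% of all 27025 genes with one. These 3 promoters are shown because they hold the element and because their genes did not share 1 pattern, Asns being separated between the genotypes and Got1 not. Each is the 250 bases before the start, read 5′ to 3′ on the minus strand, with the element in capitals. The windows are chr6:7693210-7693459 for Asns, chr19:43524606-43524855 for Got1 and chr11:120643749-120643998 for Pycr1.
Asns: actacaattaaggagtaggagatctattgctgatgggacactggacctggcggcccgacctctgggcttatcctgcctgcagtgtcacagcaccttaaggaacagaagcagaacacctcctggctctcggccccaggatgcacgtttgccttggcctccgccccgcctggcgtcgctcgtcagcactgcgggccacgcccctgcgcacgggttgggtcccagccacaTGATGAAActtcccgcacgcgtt
Got1: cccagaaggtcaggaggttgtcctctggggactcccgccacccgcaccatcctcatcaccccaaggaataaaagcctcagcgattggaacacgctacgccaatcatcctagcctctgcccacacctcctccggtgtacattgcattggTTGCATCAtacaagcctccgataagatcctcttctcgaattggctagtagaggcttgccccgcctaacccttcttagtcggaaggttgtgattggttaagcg
Pycr1: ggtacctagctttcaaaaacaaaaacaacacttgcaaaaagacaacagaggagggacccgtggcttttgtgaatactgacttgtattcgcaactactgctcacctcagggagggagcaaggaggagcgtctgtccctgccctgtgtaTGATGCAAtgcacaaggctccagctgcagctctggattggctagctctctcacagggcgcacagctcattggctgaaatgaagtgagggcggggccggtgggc
In Asns the element reads TGATGAAA and lies 23 to 16 bases before the start. In Pycr1 it reads TGATGCAA, 103 to 96 bases before the start. In Got1 it stands in the opposite orientation, as TTGCATCA, 102 to 95 bases before the start. A match describes the letters only and shows no binding, and a start used in the liver may differ from the annotated one. In the GENCODE M21 annotation the Asns gene reaches further upstream, to base 7693254, so that the element lies inside that gene model.

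Total counts per library ran from 11624143 to 25573210. Atf4, the targeted gene, was counted at 59.5, 62.8, 58.6 and 59.8 CPM (counts scaled to a common library total) in the hUGT1/Atf4F/F libraries and at 18.5, 19.7, 17.5 and 17.4 CPM in the hUGT1/Atf4ΔHep libraries, in the order vehicle 1 and 2, TCS 1 and 2. The genotypes did not overlap, in accord with the labels. All 10 hepatocyte markers were counted in every library, with a summed level of 137926 to 167563 CPM. In bulk liver, fewer cells of a type and less RNA per cell cannot be told apart. Markers of pancreatic acinar cells (12 genes, 9 of them counted in every library, Amy2a5 at 0 in all) were present at low levels that moved with the groups. Their summed level was 9.79 and 51.1 CPM in vehicle-treated and 64.3 and 47.5 CPM in TCS-treated hUGT1/Atf4F/F libraries, against 18.5 and 14.4 CPM and 119 and 110 CPM in the hUGT1/Atf4ΔHep libraries. The pools also differed in sex makeup, with Xist between 0.346 and 778 CPM. Neither difference follows the genotype in every library.

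The 10 enzyme genes spanned a wide range of levels. On a per-length scale, CPM per kilobase of exon in the GENCODE M21 annotation, Got1 stood first with a mean of 127 over the 8 libraries, followed by Shmt2 with 93.5. The libraries of Got1 (106 to 147) and Shmt2 (83.5 to 103) did not overlap in CPM per kilobase. The other 8 genes had mean levels of 1.65 or less, in the order Mthfd1l (1.65), Psat1 (1.47), Asns (1.21), Psph (0.97), Aldh18a1 (0.92), Mthfd2 (0.59), Phgdh (0.50) and Pycr1 (0.12), all in CPM per kilobase. Among these 8, the range over libraries of each gene overlapped that of the next in the order. Got1 and Shmt2 were thus counted with far more reads per library than the other 8. For Pycr1 the interval that counting error alone allows was as wide as the differences between groups.

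**Figure D1:**
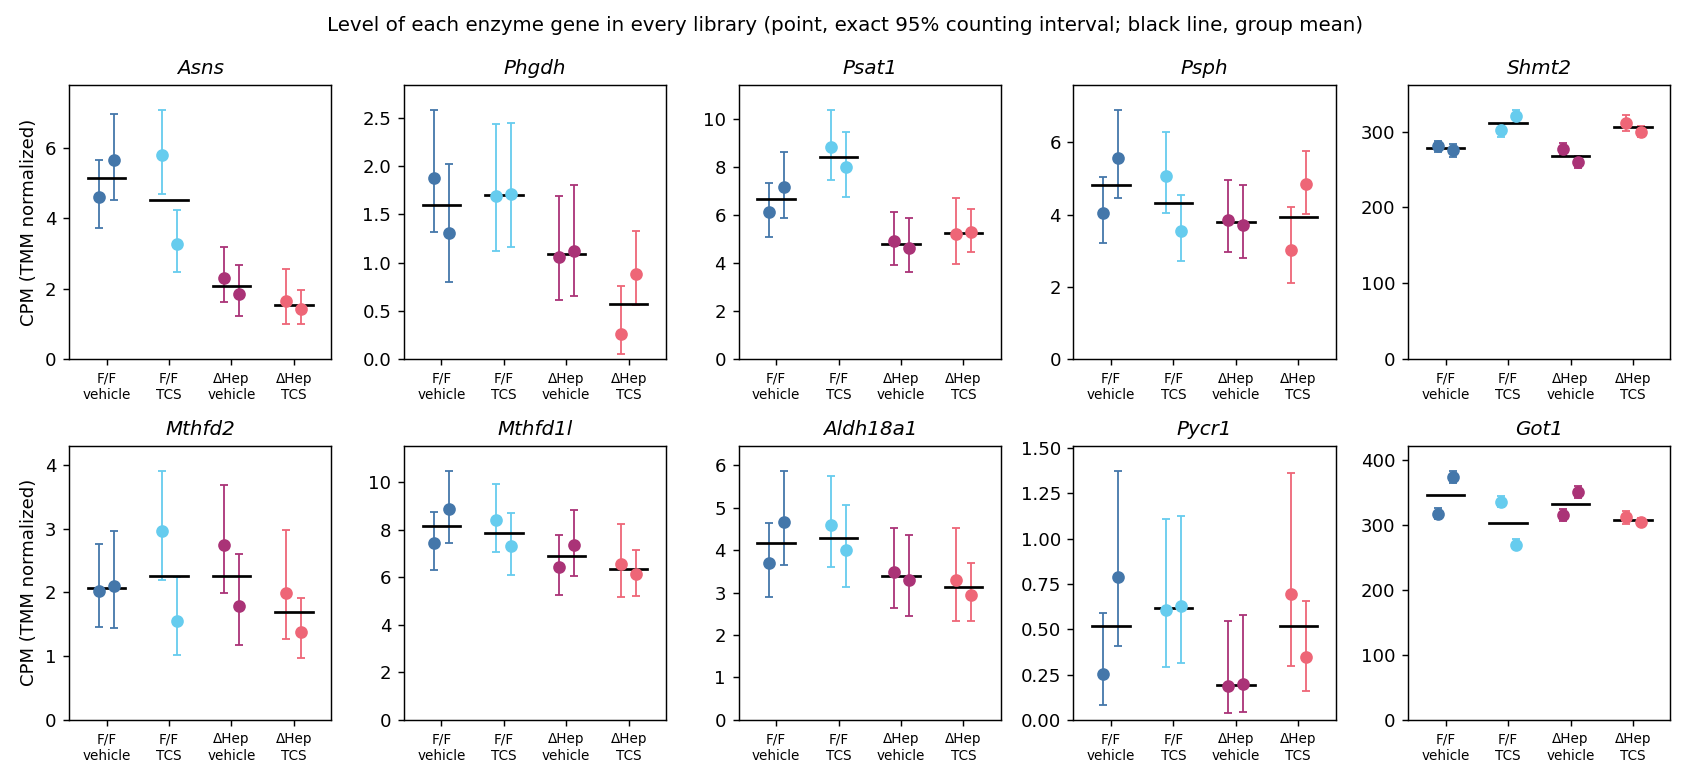
Level of each of the 10 enzyme genes in every library, in CPM on a linear axis that starts at 0, with points for libraries, exact Poisson 95% intervals for counting error and a black line for the mean of the 2 libraries of a group. Asns, Phgdh, Psat1 and Aldh18a1 lay lower in all 4 hUGT1/Atf4ΔHep libraries than in all 4 hUGT1/Atf4F/F libraries, whereas Shmt2 and Got1 overlapped between genotypes.

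Without hepatocyte Atf4, the libraries held less RNA of the asparagine enzyme Asns, of the serine enzymes Phgdh and Psat1 and of the proline enzyme Aldh18a1, although none of these passed the test of edgeR across all genes and only Asns passed that of DESeq2. The abundant Shmt2 and Got1 overlapped between the genotypes. In 4 of the 10 genes, Asns, Phgdh, Psat1 and Aldh18a1, every hUGT1/Atf4ΔHep library was below every hUGT1/Atf4F/F library. The same held for 138 of the 13633 genes tested, or 1.01%, and no enzyme gene was separated in the other direction, as 168 genes (1.23%) were. Averaged over the treatments, the log2 fold change was below 0 for all 10 genes, with a median of -0.33, and the median of all genes tested was -0.001. An unadjusted p under 0.05 with a lower level was reached by 5 of the 10 genes (Asns, Psat1, Phgdh, Aldh18a1 and Mthfd1l), against a background of 2.07%. After adjustment over all 13633 genes, the quasi-likelihood test of edgeR called 0 of the 10, where it called 6 genes in all (0.044%), and DESeq2 called 1 of the 8 to which it gave an adjusted p, Asns. The separated genes were thus more frequent among the 10 than in the background, while the test called none of them in edgeR. The 10 were chosen with earlier results of these data known, so the shares describe them and are no independent evidence.

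Asns (chr6:7675169-7693254 on GRCm38, minus strand), which encodes asparagine synthetase, had the smallest p of the 10. It was counted at 4.61 and 5.65 CPM in vehicle-treated and at 5.80 and 3.26 CPM in TCS-treated hUGT1/Atf4F/F libraries. In the hUGT1/Atf4ΔHep libraries it was counted at 2.31 and 1.85 CPM with vehicle and at 1.64 and 1.42 CPM with TCS. The genotypes did not overlap, and the lowest of the hUGT1/Atf4F/F values came from a TCS library. These levels rested on 57 to 96 reads in the hUGT1/Atf4F/F libraries and on 19 to 37 reads in the others. The log2 fold change of the deletion was -1.29 (SE 0.32) under vehicle and -1.58 (SE 0.33) under TCS, comparisons that share no library. Averaged, it was -1.44 (SE 0.23, 95% interval -1.95 to -0.92), so that the level was 0.37 times that with intact Atf4, with a p of 0.00016 and an adjusted p of 0.206 from edgeR. Among the 6870 tested genes with a negative averaged fold change, Asns stood 5th by p. The call depended on the processing. Asns passed the threshold in edgeR without the filter on low counts (adjusted p = 0.0201) and in DESeq2 (adjusted p = 0.00253). With 1 library left out in turn the adjusted p ran from 0.0741 to 0.995 and the log2 fold change from -1.61 to -1.20.

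The acinar cell markers were highest in the TCS-treated hUGT1/Atf4ΔHep libraries, where Asns and Phgdh were lowest. Under vehicle the acinar sums of the genotypes overlapped, 9.79 and 51.1 CPM against 18.5 and 14.4 CPM, and Asns was separated there too. The part of the acinar RNA in the result was not tested. With the sex makeup of the pools as a covariate, the averaged log2 fold change of Asns was -1.43 with an adjusted p of 0.234.

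The pattern of Asns over the 8 libraries was compared with that of every tested gene, as the root mean square difference of log2 CPM centred on the mean of each gene. Outside the 10 enzyme genes, Atf4 itself was nearest, at 0.32. It was followed by Pdgfrl at 0.35, 1700048O20Rik at 0.39, Rspo1 at 0.39 and Rnase6 at 0.40. Pdgfrl, Rspo1 and Rnase6 were counted at only 0.260 to 2.23 CPM, and their genotypes overlapped. The genotypes of 1700048O20Rik were separated, at 3.37 to 4.99 CPM with intact Atf4 and 1.56 to 2.65 CPM with its deletion. In the averaged deletion edgeR called none of the genes that followed Atf4 (adjusted p of 0.824 or more). A gene that did not vary at all would stand at 0.73. These are distances over 8 libraries of 4 groups and carry no test. Of the other enzyme genes, Psat1 was nearest to Asns, at 0.51, and Phgdh had Asns as its nearest at 0.57. Psat1 and Aldh18a1 lay at 0.18 from each other, and Mthfd1l and Aldh18a1 at 0.09. These genes varied less than Asns, which makes small distances easier to reach. A gene that did not vary would stand at 0.32 from Psat1, 0.21 from Aldh18a1 and 0.17 from Mthfd1l.

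**Figure D2:**
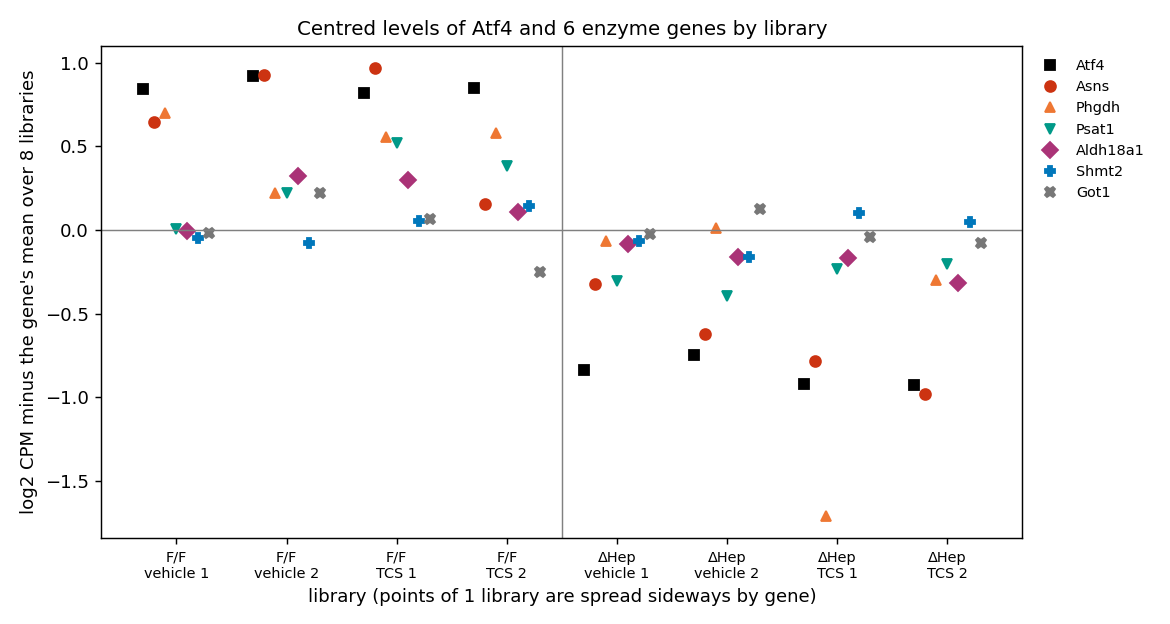
Log2 CPM of Atf4 and of 6 of the enzyme genes in each of the 8 libraries, minus the mean of the gene over all 8, with the genotypes on either side of the vertical line. Asns lay near Atf4 in most libraries, apart from a TCS-treated hUGT1/Atf4F/F library (3.26 CPM) and a vehicle-treated hUGT1/Atf4ΔHep library (2.31 CPM), and Phgdh stood lowest in a TCS-treated hUGT1/Atf4ΔHep library that held 3 reads.

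Of the serine enzymes, Phgdh (chr3:98313170-98339990, minus strand), which encodes phosphoglycerate dehydrogenase, the entry step, was counted at 1.88, 1.31, 1.69 and 1.72 CPM in the hUGT1/Atf4F/F libraries (vehicle 1 and 2, TCS 1 and 2). In the hUGT1/Atf4ΔHep libraries it stood at 1.06, 1.12, 0.260 and 0.882 CPM in the same order. The genotypes did not overlap, and the lowest value rested on 3 reads in the shallowest library. The averaged log2 fold change was -0.98 (SE 0.34), with an unadjusted p of 0.0176 and an adjusted p of 1.00 from edgeR. Without that library it was -0.75, and without the other TCS-treated hUGT1/Atf4ΔHep library -1.61. The count of Phgdh is uncertain for a further reason. The reference holds 9 processed pseudogenes that match its transcript at 95.3% to 98.7% identity, 7 of them over at least 80% of its length, and none of these is in the count table. Reads shared with them may have been dropped or assigned to Phgdh, and the counting rules were not given in the sources used here.

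Psat1 (chr19:15904678-15947337, minus strand) encodes phosphoserine aminotransferase, the middle step. It was counted at 6.13 and 7.16 CPM with vehicle and at 8.82 and 8.01 CPM with TCS in hUGT1/Atf4F/F libraries. In hUGT1/Atf4ΔHep libraries it was counted at 4.92 and 4.63 CPM with vehicle and at 5.19 and 5.29 CPM with TCS. No library of either genotype reached into the range of the other, and the replicates of each group lay close together. The log2 fold change of the deletion was -0.47 (SE 0.16) under vehicle, -0.68 (SE 0.16) under TCS and -0.58 (SE 0.11, 95% interval -0.83 to -0.32) on average, a level 0.67 times that with intact Atf4. The averaged p was 0.00075, 7th among the genes with a negative fold change, and the adjusted p was 0.604 from edgeR.

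Psph (chr5:129765558-129787449, minus strand) encodes phosphoserine phosphatase, the last step, and its libraries overlapped. The levels were 4.06, 5.58, 5.07 and 3.55 CPM in hUGT1/Atf4F/F libraries and 3.86, 3.71, 3.03 and 4.83 CPM in hUGT1/Atf4ΔHep libraries. The averaged log2 fold change was -0.22, with a 95% interval of -0.68 to 0.25 that admits a fall to 0.62 times the level as well as a rise to 1.19 times. The Psph transcript shares 452 bases at 100% identity with a transcript of Cct6a, a chaperonin subunit gene on the opposite strand that was counted at 89.7 to 104 CPM. Libraries were made with a stranded kit, but the strand setting of the counting was not given in the sources used here.

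In the mitochondrial folate route, Shmt2 (chr10:127517123-127522444, minus strand) encodes mitochondrial serine hydroxymethyltransferase. It was counted at 280, 275, 302 and 320 CPM in hUGT1/Atf4F/F libraries and at 277, 259, 311 and 300 CPM in hUGT1/Atf4ΔHep libraries. Its libraries separated by treatment rather than by genotype. The averaged log2 fold change of the deletion was -0.04 (SE 0.05), and the 95% interval of -0.14 to 0.06 left room for no more than a change to 0.907 or 1.05 times the level.

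Mthfd2 (chr6:83305691-83325908, minus strand), the mitochondrial methylenetetrahydrofolate dehydrogenase, was counted at 2.03, 2.10, 2.96 and 1.54 CPM with intact Atf4 and at 2.74, 1.79, 1.99 and 1.38 CPM with its deletion. The averaged log2 fold change was -0.16 (95% interval -0.80 to 0.48), so a moderate change in either direction was not detectable at this depth. Mthfd1l (chr10:3973118-4167081, plus strand), the mitochondrial formate-releasing enzyme, was counted at 7.45, 8.86, 8.39 and 7.32 CPM with intact Atf4 and at 6.42, 7.35, 6.58 and 6.14 CPM with its deletion. Only the highest hUGT1/Atf4ΔHep library of Mthfd1l (7.35 CPM) exceeded the lowest hUGT1/Atf4F/F library (7.32 CPM), and the averaged log2 fold change was -0.28 (SE 0.12), with an unadjusted p of 0.0407 and an adjusted p of 1.00 from edgeR.

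Of the proline enzymes, Aldh18a1 (chr19:40550257-40588463, minus strand), the gene of the synthase that starts the route from glutamate, was counted at 3.70, 4.66, 4.59 and 4.0 CPM with intact Atf4 and at 3.49, 3.31, 3.29 and 2.95 CPM with its deletion. The genotypes did not overlap, although the gap between 3.49 and 3.70 CPM was small. The averaged log2 fold change was -0.38 (SE 0.15), with an unadjusted p of 0.0371 and an adjusted p of 1.00 from edgeR. It was -0.29 under vehicle and -0.47 under TCS. Pycr1 (chr11:120635712-120643769, minus strand), the gene of a mitochondrial pyrroline-5-carboxylate reductase, was near the limit of detection, at 0.254, 0.788, 0.604 and 0.629 CPM with intact Atf4 and 0.187, 0.199, 0.692 and 0.345 CPM with its deletion. Its averaged log2 fold change of -0.85 had a 95% interval from -1.99 to 0.29.

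Got1 (chr19:43499752-43524605, minus strand), the cytosolic aspartate aminotransferase, was the best measured of the 10 beside Shmt2. Its levels were 317, 373, 335 and 269 CPM in hUGT1/Atf4F/F libraries and 315, 350, 311 and 304 CPM in hUGT1/Atf4ΔHep libraries. The hUGT1/Atf4ΔHep values fell inside the range of the others. The averaged log2 fold change was -0.01 (SE 0.08, 95% interval -0.20 to 0.17). Of the 3 genes with the composite element, Asns was therefore separated between genotypes, Got1 overlapped with a narrow interval around 0, and Pycr1 could not be resolved. Psat1, Phgdh and Aldh18a1 were separated with no such element in the searched windows. Those of Psat1 reached upstream to bases 15924872 and 15925309. Its GENCODE M21 gene model reaches further upstream, to base 15947337, where no window was searched.

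**Figure D3:**
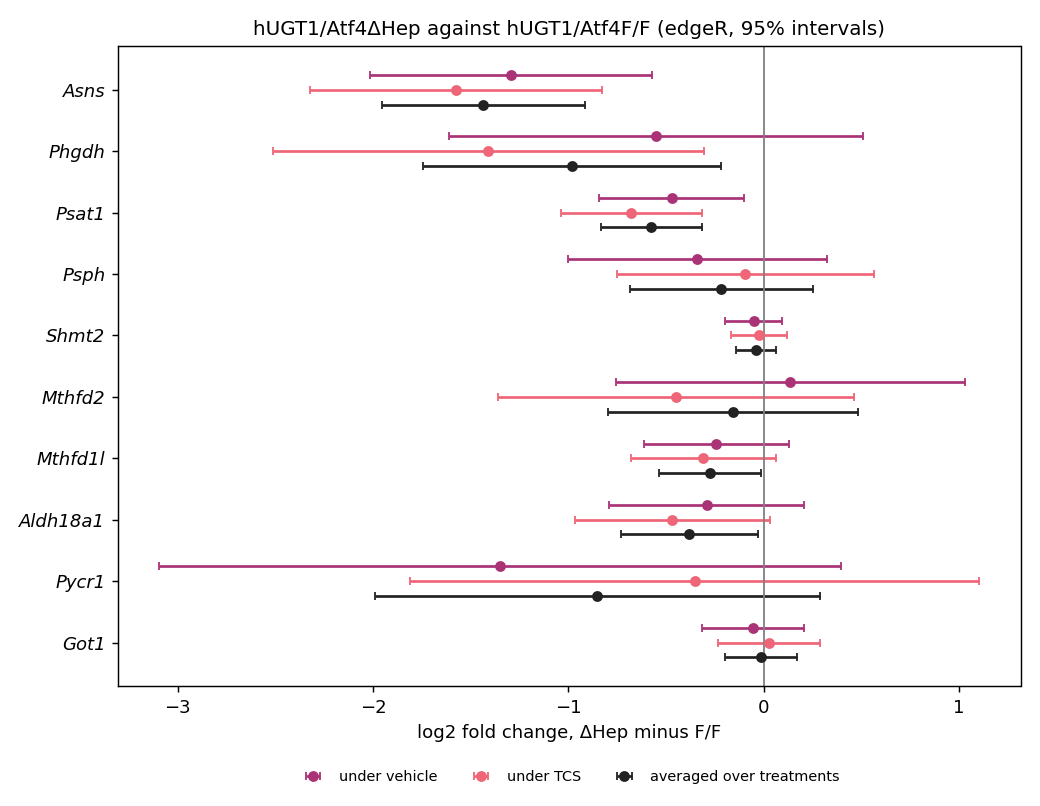
Log2 fold change of hUGT1/Atf4ΔHep against hUGT1/Atf4F/F for each of the 10 enzyme genes from edgeR, under vehicle, under TCS and averaged, with 95% intervals. The averaged interval excluded 0 for Asns (-1.44), Phgdh (-0.98), Psat1 (-0.58), Aldh18a1 (-0.38) and Mthfd1l (-0.28) before adjustment over genes, and those of Shmt2 and Got1 were narrow around 0.

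The deletion was also compared within each treatment. Under vehicle, 9 of the 10 genes had a negative log2 fold change, with a median of -0.32. The exception was Mthfd2 at 0.14. For 7 of the 10 genes, both hUGT1/Atf4ΔHep libraries lay below both hUGT1/Atf4F/F libraries, which 14.9% of tested genes did. The unadjusted p was under 0.05 for 2 of them, Asns (0.00293) and Psat1 (0.0182), with 1.58% of tested genes lower at this level. Under TCS, 9 of 10 were again negative, with a median of -0.40 and Got1 at 0.02. Both libraries were lower for 5 of 10 genes, against 15.3% of tested genes, and the unadjusted p was under 0.05 for Asns (0.00105), Psat1 (0.00221) and Phgdh (0.0179), against 1.75% of tested genes. In each treatment edgeR called 3 genes in all (0.022%) and 0 of the 10, as did DESeq2 for the 10.

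With TCS no enzyme gene passed the test of edgeR, and Shmt2 had the best resolved difference. In hUGT1/Atf4F/F mice edgeR called 0 of the 10, where it called 76 genes in all (0.557%). DESeq2 gave an adjusted p in the TCS comparisons only to the abundant Shmt2 and Got1, 2 of the 10, and called 0 of these here. The unadjusted p was under 0.05 for 1 of them, Shmt2, against 9.73% of tested genes. In hUGT1/Atf4ΔHep mice edgeR again called 0 of the 10 and DESeq2 0 of these 2, with 92 genes called by edgeR in all (0.675%), and Shmt2 alone had an unadjusted p under 0.05, against 11.5%. Log2 fold changes were above 0 for 6 of the 10 genes in hUGT1/Atf4F/F mice and for 4 of the 10 in hUGT1/Atf4ΔHep mice.

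For Shmt2 in hUGT1/Atf4F/F mice both TCS libraries (302 and 320 CPM) were above both vehicle libraries (280 and 275 CPM), and in hUGT1/Atf4ΔHep mice the TCS libraries (311 and 300 CPM) were again above the vehicle libraries (277 and 259 CPM). The log2 fold change was 0.16 (SE 0.06) and 0.19 (SE 0.06) in turn, with unadjusted p values of 0.0326 and 0.0167 and adjusted p values of 0.459 and 0.304 from edgeR. Averaged over the genotypes it was 0.18 (SE 0.05, 95% interval 0.07 to 0.28), or 1.13 times the level, with a p of 0.00394 and an adjusted p of 0.0896 from edgeR. Across all genes the averaged comparison called 353 genes (2.59%), none of them among the 10. DESeq2 called Shmt2 there, with an adjusted p of 0.0328. In the whole table this comparison called 107 to 861 genes over all alternatives, DESeq2 among them. Over all alternatives the adjusted p of Shmt2 ran from 0.0328 to 0.314.

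The sex makeup of the pools moved with TCS in hUGT1/Atf4F/F mice, where Xist, a transcript of female cells, was counted at 23.2 and 1.05 CPM with vehicle and at 718 and 758 CPM with TCS. In hUGT1/Atf4ΔHep mice it was counted at 778 and 4.50 CPM with vehicle and at 0.346 and 753 CPM with TCS, so that 1 library of each treatment was high. With the sex covariate the averaged log2 fold change of Shmt2 was 0.16, with an adjusted p of 0.314 from edgeR. The acinar sums overlapped between treatments in hUGT1/Atf4F/F mice and were higher with TCS in hUGT1/Atf4ΔHep mice. The summed hepatocyte markers were lower in every TCS library (137926 to 154312 CPM) than in every vehicle library (156139 to 167563 CPM). Alb alone made up most of each sum (100900 to 124300 CPM), and the members of the list did not all move together. Apoa1 was lower in every TCS library (8259 to 10140 CPM) than in every vehicle library (10600 to 12110 CPM). Hnf4a (528 to 573 CPM with TCS, 485 to 595 CPM with vehicle) and Asgr1 (350 to 395 CPM against 346 to 389 CPM) overlapped. The liver endothelium sums were lower with TCS in each genotype, at 472 and 444 CPM against 491 and 585 CPM in hUGT1/Atf4F/F mice and at 444 and 437 CPM against 455 and 537 CPM in hUGT1/Atf4ΔHep mice. The part of these cell types in the result was not tested.

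Psat1 was the only other gene whose TCS libraries lay above its vehicle libraries in each genotype, with an averaged log2 fold change of 0.24 (SE 0.11) and an adjusted p of 0.323 from edgeR. The TCS libraries were higher for 2 of the 10 genes in hUGT1/Atf4F/F mice, where 19.7% of tested genes were. In hUGT1/Atf4ΔHep mice they were higher for 3 and lower for 4 of the 10, and 21.5% of tested genes fell in each direction. These shares show how often a pair of libraries separates from another pair in this table. For Asns the log2 fold change with TCS was -0.18 (95% interval -0.85 to 0.49) in hUGT1/Atf4F/F mice and -0.46 (95% interval -1.25 to 0.33) in hUGT1/Atf4ΔHep mice, and an increase larger than 1.41 times lay outside the first interval.

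**Figure D4:**
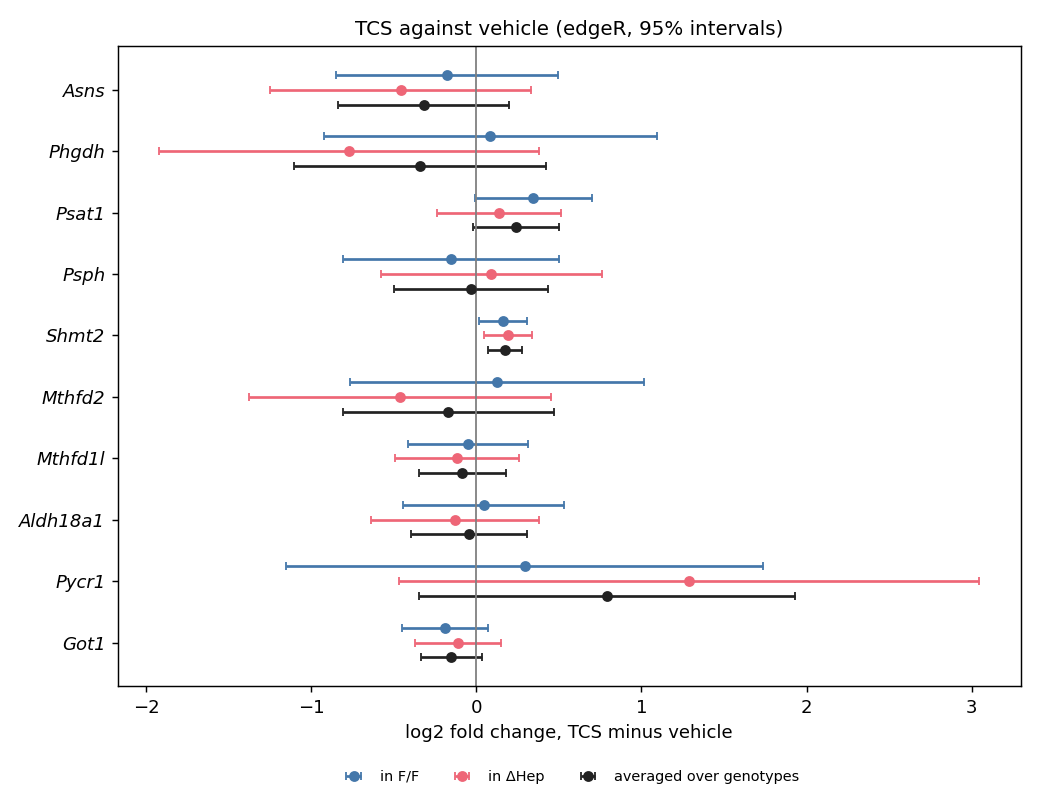
Log2 fold change of TCS against vehicle for each of the 10 enzyme genes from edgeR, in hUGT1/Atf4F/F mice, in hUGT1/Atf4ΔHep mice and averaged, with 95% intervals. Of the averaged intervals only that of Shmt2 (0.07 to 0.28) excluded 0, and Pycr1 had the widest intervals.

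Whether the effect of TCS differed between the genotypes was tested with the interaction, which edgeR called for 0 of 13633 genes (0%), with 282 genes (2.07%) at an unadjusted p under 0.05 and 0 of the 10 among them. DESeq2 called 0 of the 10. The interaction of Asns was -0.28 (95% interval -1.32 to 0.75) and that of Shmt2 was 0.03 (95% interval -0.18 to 0.23), both on the log2 scale. The intervals of Phgdh (-2.39 to 0.67) and Pycr1 (-1.28 to 3.28) were wider than any effect measured here.

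Several of the 10 have a counterpart that performs the same or a similar step in another compartment, and in the deletion averaged over treatments neither edgeR nor DESeq2 called those described here. Pycrl, a cytosolic reductase of the last proline step, was counted at 20.8, 19.6, 23.6 and 21.6 CPM with intact Atf4 and at 22.1, 22.7, 25.9 and 24.2 CPM with its deletion. Its libraries overlapped, and the log2 fold change was 0.15 (95% interval -0.0027 to 0.29). The cytosolic folate enzymes Shmt1 (0.00, 95% interval -0.14 to 0.14) and Mthfd1 (0.00, 95% interval -0.09 to 0.10) differed little in log2 fold change, as did the mitochondrial aminotransferase Got2 (-0.03). Aldh1l1, a cytosolic formyltetrahydrofolate dehydrogenase, stood at 0.09 and Mthfd2l, a relative of Mthfd2, at 0.26, both on the log2 scale with intervals that included 0. Aldh1l2 did not pass the filter. Which form was the more abundant differed by step. Cytosolic Mthfd1 stood at 71.0 mean CPM per kilobase, while the mitochondrial Mthfd1l stood at 1.65 and Mthfd2 at 0.59. By contrast, mitochondrial Shmt2 (93.5) stood above cytosolic Shmt1 (61.8), and mitochondrial Got2 (159) above cytosolic Got1 (127), on the same scale.

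A wider list of serine, glycine and folate genes (38 named, 35 tested) held 0 genes called by edgeR or DESeq2 in the averaged deletion and 0 with an unadjusted p under 0.05, and its median log2 fold change was 0.003. The smallest p values belonged to Sfxn3, a mitochondrial carrier family gene, at -0.40 (unadjusted p of 0.0672), Slc19a1, the reduced folate carrier, at 0.26 (0.0881), and Ftcd, of histidine breakdown, at 0.10 (0.104). A list of asparagine, aspartate, glutamate and proline genes (32 named, 28 tested) held 0 genes called by either tool in the deletion, with 2 higher at an unadjusted p under 0.05 and a median of 0.04. Neither median was far from the -0.001 of all genes. With TCS, Oat, which encodes ornithine aminotransferase and links ornithine to proline and glutamate, rose in both genotypes. Its levels were 252 and 252 CPM with vehicle and 367 and 454 CPM with TCS in hUGT1/Atf4F/F mice, and 257 and 267 CPM against 475 and 506 CPM in hUGT1/Atf4ΔHep mice. The rise on the log2 scale was 0.70 (SE 0.10) and 0.91 (SE 0.10) in turn, with adjusted p values of 0.0154 and 0.00429 from edgeR. Gls2, the liver glutaminase, fell by 0.25 on the log2 scale when averaged over the genotypes (adjusted p = 0.0313). In the averaged TCS comparison edgeR called these 2 of the 28 and DESeq2 called 5, Oat, Aldh4a1, Aspg and Slc25a13 higher and Gls2 lower. Of all genes tested edgeR called 2.59% there, and the share called by DESeq2 is not given here. An unadjusted p under 0.05 was reached by 15 of the 28 (53.6%), against 17.2% of all genes tested. Of the 35 serine, glycine and folate genes edgeR called 0 and DESeq2 3, and 8 (22.9%) had an unadjusted p under 0.05. Both lists were chosen with earlier results of these data known, so these shares are descriptive only.

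Of 14 genes of ATF4 itself, its regulators and other stress factors, edgeR called 2 in the averaged deletion, both lower, against 0.044% of all genes tested. The median log2 fold change of the 14 was -0.15, with 9 below 0 and 5 above 0. Atf4 was the first, at -1.72 on the log2 scale (SE 0.05, adjusted p = 1.68e-06). It is the gene the deletion targets, so its call was fixed by the design. The other was Atf5, a transcription factor related to ATF4, with -0.36 (SE 0.04, adjusted p = 0.0366). Trib3, a pseudokinase gene that ATF4 is known to induce, was counted at 3.65, 2.95, 5.31 and 5.66 CPM with intact Atf4 and at 2.49, 1.79, 4.33 and 1.96 CPM with its deletion. Trib3 was not called, with -0.75 (SE 0.26) and an unadjusted p of 0.0181 from edgeR. By point estimate, the log2 fold change of Asns (-1.44) lay between those of Atf4 and Trib3, and that of Psat1 (-0.58) between those of Trib3 and Atf5. That of Aldh18a1 (-0.38) was close to that of Atf5. With an SE of 0.26 for Trib3 this order is uncertain, and it was not tested.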

How the data were processed

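RNA was sequenced with a stranded mRNA kit, in 8 libraries. The submitters' notes list bcl2fastq 2.20, STAR 2.7.9a and the mm10 build. A counting program was not given in the sources used here, nor was a gene annotation. Raw counts per gene symbol were used as deposited by the authors. Deposited size-factor-scaled counts and the authors' tables of fold changes and p-values were not used. Libraries were grouped by their labels, and none was left out.

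Counts were fitted in R 4.3.3 with edgeR 4.0.16 (TMM normalization, filterByExpr with a count minimum of 10, quasi-likelihood, 1 mean per group over 8 libraries, 4 residual degrees of freedom), with p-values adjusted by Benjamini and Hochberg over 13633 genes and called under 0.05. Each SE came from the F statistic. Levels are TMM-scaled CPM without a prior count, and centred log2 values used a prior count of 2. Alternatives were DESeq2 1.42.0, RLE factors, no filter, fewer libraries, a replicate block, a sex covariate and a stricter threshold. Pseudogene and overlap matches were sought with BLAST 2.17.0 at 95% identity or more, and figures drawn with matplotlib 3.10.9. In simulated data at these depths, the averaged deletion comparison recovered 38.6%, 72.7% and 91.9% of log2 changes of 0.5, 1 and 2 among 13633 genes, with 11 false calls among 140. These changes were planted in 83, 55 and 62 genes drawn from all those tested, and gave far more calls than the 6 in the data. Recovery was not measured for the 10 genes, most of which had few reads, and may be lower for them. For the simulated deletion under TCS the recovery was 10.6%, 64.2% and 86.6%, with 20 false calls among 128. Libraries of a group differed beyond sampling noise (chi-square per gene 7.48 to 16.8). Intervals on a single library cover counting error only, and p-values measure only the spread between these pools, whose litters the labels do not give.

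The 10 genes and all lists were chosen with earlier results of these data known. Named genes were the 10, their counterparts, Atf4, list genes called, up to 3 uncalled per list by smallest p in the averaged deletion, and the 5 genes nearest to Asns; 1 gene under this rule is not reported here. Gene coordinates and exon lengths come from GENCODE M21 on GRCm38, promoters from RefSeq on GRCm38.p6.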

Additional observations from a re-analysis of the deposited data

How the results depend on the processing

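Of the counts of enzyme genes called, all stayed at 0 except 5. Asns was called in the averaged deletion (1 of 10) without the filter on low counts, in DESeq2 and with crossed replicate numbers as a block (adjusted p = 0.0481), and Shmt2 in the averaged TCS effect (1 of 10) in DESeq2 and with that crossed block (adjusted p = 0.0417). DESeq2 gave no adjusted p to Phgdh and Pycr1 in the averaged deletion, or to 8 of the 10 in the TCS comparisons. The count of enzyme genes with separated genotypes was 4 or 5 under every alternative. The deviations of same-numbered libraries correlated at 0.34 and 0.37 between the genotypes of a treatment, and from -0.43 to -0.11 between treatments. The sign thus changed with the treatment, and the numbers were not taken as pairs. With the replicate number as a block, Asns had -1.42 (adjusted p = 0.355) in the averaged deletion, and 0 of 10 were called in every comparison. The crossed pairing was chosen after seeing the data, and with it edgeR called 861 genes in the averaged TCS effect, against 353 in the main fit.

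With the sex covariate 7 uncalled estimates turned sign: Got1 under vehicle (0.038), under TCS (-0.052) and in the interaction (-0.090), Psph in the deletion under TCS (0.034), Phgdh (-0.57) and Mthfd1l (0.15) with TCS in hUGT1/Atf4F/F mice, and Mthfd1l with averaged TCS (0.014). Leaving out 1 library turned 41 of 560 uncalled estimates and called none. For the deletion under vehicle the log2 fold changes then ran from -0.21 to 0.41 for Mthfd2 and -0.17 to 0.070 for Got1. For the deletion under TCS the log2 fold changes then ran from -0.50 to 0.19 for Psph, -0.066 to 0.019 for Shmt2, -0.85 to 0.091 for Mthfd2, -0.82 to 0.17 for Pycr1 and -0.13 to 0.19 for Got1. For the averaged deletion the log2 fold changes then ran from -0.35 to 0.11 for Mthfd2 and -0.089 to 0.069 for Got1. For TCS in hUGT1/Atf4F/F mice the log2 fold changes then ran from -0.65 to 0.18 for Asns, -0.14 to 0.37 for Phgdh, -0.44 to 0.086 for Psph, -0.42 to 0.52 for Mthfd2, -0.17 to 0.076 for Mthfd1l, -0.12 to 0.21 for Aldh18a1 and -0.35 to 1.26 for Pycr1. For TCS in hUGT1/Atf4ΔHep mice the log2 fold changes then ran from -0.32 to 0.35 for Psph. For the averaged TCS effect the log2 fold changes then ran from -0.24 to 0.095 for Psph, -0.44 to 0.027 for Mthfd2 and -0.12 to 0.042 for Aldh18a1. For the interaction the log2 fold changes then ran from -0.64 to 0.19 for Asns, -0.16 to 0.53 for Psph, -0.018 to 0.075 for Shmt2, -0.19 to 0.057 for Mthfd1l and -0.072 to 0.25 for Got1.

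Over all alternatives the number of genes called in the whole table ran from 2 to 6 for the deletion under vehicle (main 3), 2 to 31 for the deletion under TCS (main 3), 3 to 15 for the averaged deletion (main 6), 20 to 214 for TCS in hUGT1/Atf4F/F mice (main 76), 11 to 331 for TCS in hUGT1/Atf4ΔHep mice (main 92), 107 to 861 for the averaged TCS effect (main 353) and 0 to 1 for the interaction (main 0). The causes were not tested. The spread within pairs of libraries limits all estimates, and counting error limits those of Phgdh, Pycr1 and Mthfd2. It also limits that of Asns, which had 19 to 37 reads in the hUGT1/Atf4ΔHep libraries.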
